A study of Mus musculus with 6 samples.

Results

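The interleukin 1 (IL-1) family and its receptors were followed in mammary tumors and normal, adjacent mammary glands of BK5.ATF3 mice. The 9 members were chosen by gene symbol and comprise the ligands Il1a, Il1b, Il18 and Il33, the receptor antagonist Il1rn, and the receptor genes Il1r1, Il1r2, Il1rap and Il1rl1. All 9 were present in the expression table, which holds 15280 genes. RNA-Seq had been carried out on 6 libraries from 3 transgenic females, with M11035, M11640 and M9232 as the glands and T11035, T11640 and T9232 as the tumors of the same mice in the same order. Each mouse supplied 1 tumor and 1 normal gland, so n = 3 for each tissue, and values are listed in this order throughout. In the BK5.ATF3 line, the transcription factor ATF3 is expressed from the bovine cytokeratin-5 promoter, which is active in basal epithelial cells. Glands and tumors both carried the transgene, and wild-type mice were not part of the comparison. The females had raised 1 litter, tissue was taken at a tumor length of 1.5 cm, and tumors of this line appear from an age of 6 months up to 12 months. The age of each mouse was not given in the sources used here. The libraries held from 4750989 to 7806908 fragments on genes, and 3 fragments corresponded to between 0.393 and 0.610 CPM (fragments scaled to a common library size). Atf3 itself was measured at 4.47, 8.09 and 22.6 CPM in the glands and at 13.4, 18.3 and 19.3 CPM in the tumors. These values overlapped, and Atf3 was not called (log2 fold change 0.80, SE 0.49, adjusted p = 0.223, limma). It was called up without M9232, the highest gland (1.41, adjusted p = 0.00804), and its adjusted p ranged from 0.00804 to 0.594 over the 14 alternatives. Whether fragments of the transgene were counted on Atf3 was not given in the sources used here.

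IL-1α and IL-1β are inflammatory cytokines that bind the same receptor, IL1R1, which then recruits the accessory chain IL1RAP and signals through MYD88 and IRAK kinases to NF-κB. IL1RN occupies IL1R1 without signaling, and IL1R2 is a decoy that binds ligand but lacks the signaling domain. IL-1β and IL-18 are made as precursors that inflammasome caspases cleave, whereas IL-1α and IL-33 are held in barrier cells such as keratinocytes and released on damage. IL-33 signals through IL1RL1 (ST2), a receptor found on mast cells, innate lymphoid cells and regulatory T cells. The RNA levels given here do not report cleavage, release or receptor occupancy.

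Tumors and glands were compared with limma on log2(CPM + 0.5), and a gene was called up- or downregulated at FDR ≤ 0.05 together with a log2 fold change of 1 or more in either direction. Of the 9 members, 6 were upregulated (Il1b, Il1rn, Il1a, Il1r2, Il33 and Il1rap) and 0 were downregulated. Over the whole table, 14.5% of genes were called up and 13.7% were called down. Il1r1 passed FDR with a log2 fold change under the threshold, which gave 7 members that passed FDR and were higher in tumors, beside 21.6% of all genes. In either direction, 41.2% of all genes passed FDR. In 7 members all 3 tumors lay above all 3 glands, as in 27.6% of all genes. The median log2 fold change of the 9 members was 1.87, and that of all genes was -0.00. Il1b had a larger fold change than all but 139 genes of the table, Il1rn than all but 245 and Il1a than all but 286. The summed level of the members was between 190 and 242 CPM in the glands and between 876 and 1435 CPM in the tumors.

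**Figure D1:**
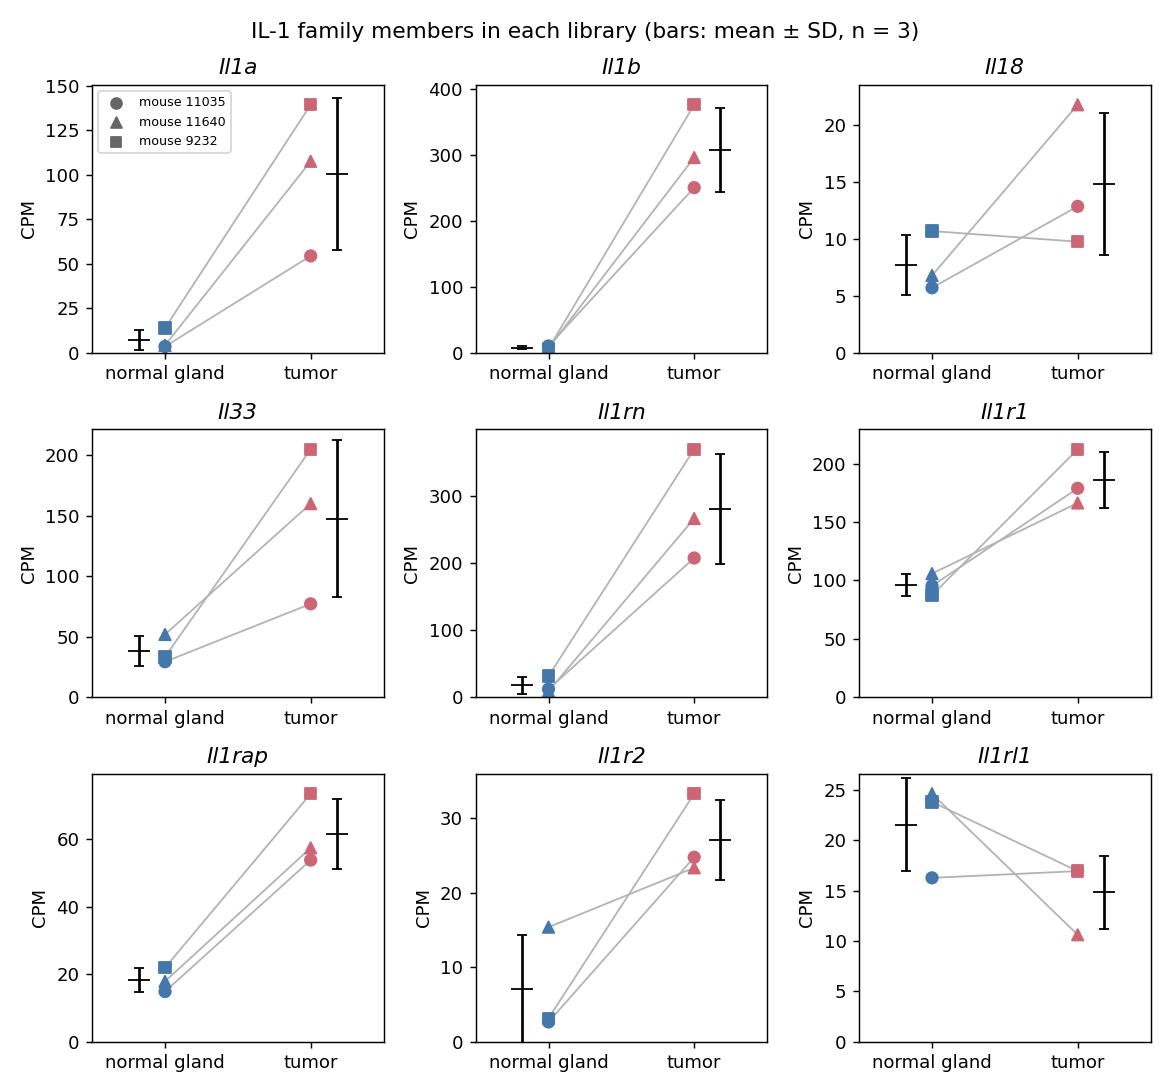
CPM of each member in the normal gland and the tumor of each mouse, on linear axes that start at 0 and differ in scale between panels. Grey lines join the libraries of a mouse, symbols mark the mouse by the number in its library names, and the black bars give the mean ± SD (n = 3), with the lower arm for Il1r2 in glands reaching past 0. The tumor points of Il1a, Il1b, Il1rn, Il33, Il1r1, Il1r2 and Il1rap all lie above the gland points, whereas those of Il18 and Il1rl1 overlap with them.

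Cell type markers also differed between the tissues. In these bulk samples, fewer cells of a type and less RNA per cell cannot be told apart. All 12 keratinocyte markers were upregulated, with a summed level between 57.3 and 110 CPM in glands and between 3734 and 5186 CPM in tumors, and Lor, a cornified envelope gene, was at 0 in all 3 glands. Of 9 neutrophil markers, 5 were upregulated and 2 were downregulated, with sums between 233 and 628 CPM in glands and between 876 and 1470 CPM in tumors. S100a8 was the highest of these by fold change, and Ltf the lowest. Without S100a8 and S100a9, a choice made after seeing the data, the sums of the other 7 genes overlapped (204, 206 and 597 CPM in glands, 226, 215 and 356 CPM in tumors). Of these 7, Csf3r, Cxcr2 and Mmp8 were upregulated, Ngp and Ltf were downregulated, and Retnlg and Camp were not called. Ltf was the highest of the 7 in every gland (103, 148 and 500 CPM) but in no tumor (44.8, 22.3 and 14.8 CPM). The gland sums thus rest largely on Ltf. Of 12 macrophage and monocyte markers, 2 were upregulated and 2 downregulated, and their sums overlapped (1152 to 4029 CPM in glands, 1415 to 2692 CPM in tumors). The adipocyte list fell in all 9 of its genes (4084 to 8093 CPM in glands, 159 to 220 CPM in tumors), and 7 of 8 B cell genes were downregulated (328 to 798 CPM, against 37.2 to 47.2 CPM). Of 9 fibroblast markers, 4 were upregulated and 1 was downregulated (1057 to 4407 CPM, against 8541 to 9187 CPM). Of 8 luminal epithelial markers, 4 were upregulated and 3 downregulated, and their sums overlapped (507 to 1006 CPM, against 753 to 924 CPM). Of 8 endothelial markers, 3 were downregulated (364 to 497 CPM, against 209 to 297 CPM). The part of these shifts in the members' values was not tested.

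The 250 bases before the start of transcription are shown for Il1a, Il1b and Il1rn, the members with the largest fold changes, because ATF3 binds AP-1 and CRE motifs and the IL-1 genes are known NF-κB targets. The sequences are from RefSeq on build GRCm38.p6 and are written 5′ to 3′ on the strand of the gene. The Il1a stretch lies at chr2:129309973-129310222 (minus strand), the Il1b stretch at chr2:129371140-129371389 (minus strand) and that of the upstream start of Il1rn at chr2:24336610-24336859 (plus strand). Capitals mark a match to the AP-1 letters TGANTCA.
Il1a: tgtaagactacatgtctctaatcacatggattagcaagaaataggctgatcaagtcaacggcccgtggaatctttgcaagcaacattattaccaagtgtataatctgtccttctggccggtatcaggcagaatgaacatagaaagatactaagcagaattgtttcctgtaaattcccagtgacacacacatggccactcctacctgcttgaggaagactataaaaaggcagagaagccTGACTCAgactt
Il1b: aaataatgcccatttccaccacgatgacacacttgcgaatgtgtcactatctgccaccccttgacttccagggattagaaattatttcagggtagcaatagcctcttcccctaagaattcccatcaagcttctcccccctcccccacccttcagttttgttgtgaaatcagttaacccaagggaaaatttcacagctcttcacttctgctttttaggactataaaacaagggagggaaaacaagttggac
Il1rn: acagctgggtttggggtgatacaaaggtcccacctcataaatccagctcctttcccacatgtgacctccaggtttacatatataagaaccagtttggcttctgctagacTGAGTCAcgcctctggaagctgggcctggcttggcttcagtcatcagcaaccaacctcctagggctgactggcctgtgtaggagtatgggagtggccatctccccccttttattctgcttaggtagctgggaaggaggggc

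All 9 members had an entry in this table, with 14 promoters in all, and each was searched on both strands from 250 bases before to 50 bases after the start. AP-1 letters were found in 2 of the 14, beginning 12 bases before the start of Il1a and 141 bases before the upstream start of Il1rn. The downstream starts of Il1rn held no match to these letters. These letters read the same on both strands, and 7.81% of all 32851 promoters hold them. The CRE letters TGACGTCA were found in 0 of the 14 (1.79% of all promoters). The NF-κB consensus was found in 1 of the 14, a promoter of Il1r1 with GGAATGCCCC read on the gene's strand from 232 bases before the start (8.46% of all promoters). The letters TATAAA, searched on the gene's strand within 50 bases before the start after the sequences had been read, began 32 bases before the start of Il1a and 31 bases before that of Il1b, and were found in 3 of the 14 in all (2.63% of all promoters). These matches are descriptions of sequence, and binding was not measured.

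Il1a and Il1b encode the agonists and lie near each other on mouse chromosome 2 (mm9, as for all gene positions here, chr2:129125346-129135708 and chr2:129190306-129196875, both on the minus strand). Il1b was measured at 10.2, 6.77 and 6.16 CPM in the glands and at 250, 296 and 376 CPM in the tumors. The groups were far apart, with the lowest tumor more than an order of magnitude above the highest gland. Il1b was upregulated with a log2 fold change of 5.24 (SE 0.23, adjusted p = 1.81e-06, limma), from 7.70 ± 2.16 to 308 ± 63.7 CPM (SD, n = 3). Within the mice, the log2 difference was 4.56, 5.35 and 5.82. Il1a was measured at 3.46, 4.13 and 13.8 CPM in the glands and at 54.3, 107 and 139 CPM in the tumors. Gland M9232 stood above the other glands, yet remained below every tumor. Il1a was upregulated with a log2 fold change of 3.87 (SE 0.51, adjusted p = 0.000475, limma), from 7.13 ± 5.80 to 100 ± 42.9 CPM (SD, n = 3), and the log2 fold change was 4.46 without M9232. The gene Gm14023 on the opposite strand shares 222 bp, or 11.2%, of the exonic bases of Il1a, and Gm14047 shares 25 bp, or 1.31%, of those of Il1b. Because the sources used here do not state that strand was kept, fragments on these stretches cannot be told apart.

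Il1rn encodes the receptor antagonist (chr2:24192373-24207014, plus strand). Its level was 12.0, 8.75 and 31.3 CPM in the glands and 207, 266 and 369 CPM in the tumors. As for Il1a, M9232 was the highest gland and T9232 the highest tumor, and the groups did not overlap. Il1rn was upregulated with a log2 fold change of 4.15 (SE 0.42, adjusted p = 0.00012, limma), from 17.4 ± 12.2 to 281 ± 81.9 CPM (SD, n = 3). Counts per gene do not separate its secreted and intracellular forms.

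The balance of antagonist and agonists was taken as a log2 ratio of (CPM + 0.5) within each library. For Il1rn to Il1a, the ratio was 1.66, 1.0 and 1.15 in the glands and 1.92, 1.30 and 1.40 in the tumors. The groups overlapped, although the ratio was higher in the tumor of each mouse, by 0.26, 0.30 and 0.25. The difference of 0.27 gave p = 0.4 in a two-sided exact permutation test that took the 6 libraries as unpaired (adjusted 0.4 over 5 ratios). The exact paired test over the 3 mice gave p = 0.25, the smallest that 3 pairs allow. For Il1rn to Il1b, the ratio was 0.23, 0.35 and 2.26 in the glands and -0.27, -0.16 and -0.03 in the tumors, so that every tumor lay below every gland. The mean difference of -1.10 was made up unevenly, with a within-mouse difference of -2.29 in the mouse of T9232, beside -0.50 and -0.50 in the other mice. For Il1a to Il1b, the ratio was -1.43, -0.65 and 1.10 in the glands and -2.19, -1.46 and -1.43 in the tumors. Every tumor again lay below every gland, with a mean difference of -1.37, but M11035 and T9232 were equal to the digits given. Both ratios to Il1b gave p = 0.1 (exact permutation test, adjusted 0.167), which is the smallest p that 3 against 3 unpaired libraries allow, and p = 0.25 in the exact paired test.

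**Figure D2:**
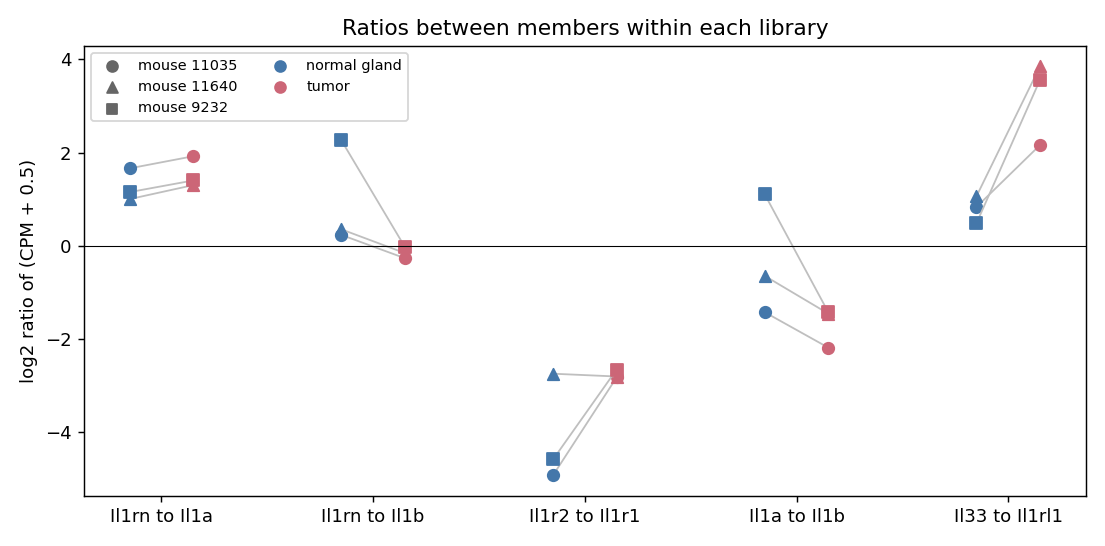
Log2 ratio of (CPM + 0.5) for 5 pairs of members within each library, with the normal gland at left and the tumor at right of each pair and grey lines joining a mouse. The ratio of Il1rn to Il1a differs by 0.25 to 0.30 within each mouse, whereas that of Il33 to Il1rl1 is higher in every tumor than in every gland.

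Il33 (chr19:29999604-30035194) encodes the alarmin IL-33. It was measured at 29.3, 51.9 and 33.4 CPM in the glands and at 77.2, 160 and 205 CPM in the tumors. T11035 was the lowest of the tumors but lay above all glands. Il33 was upregulated with a log2 fold change of 1.87 (SE 0.36, adjusted p = 0.00353, limma), and the difference was 1.38, 1.62 and 2.60 within the mice.

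Il1rl1 (chr1:40486415-40522260), which encodes the IL-33 receptor ST2, had values of 16.3, 24.6 and 23.8 CPM in the glands and 16.9, 10.6 and 16.9 CPM in the tumors. These groups overlapped, since M11035 lay below T11035. Il1rl1 was not called (log2 fold change -0.53, SE 0.25, adjusted p = 0.128, limma). Counts per gene do not separate its membrane and soluble forms. The log2 ratio of Il33 to Il1rl1 was 0.83, 1.06 and 0.48 in the glands and 2.16, 3.85 and 3.56 in the tumors, a difference of 2.40 with every tumor above every gland (exact permutation p = 0.1, adjusted 0.167, and exact paired p = 0.25). Markers of mast cells and of T and innate lymphoid cells are set beside these values. Of 8 mast cell markers, 6 were downregulated, with Cpa3 the lowest by fold change, and 1, the histidine decarboxylase gene Hdc, was upregulated (summed level 86.2 to 203 CPM in glands, 39.1 to 70.9 CPM in tumors). Of 10 T and innate lymphoid cell markers, 6 were downregulated, with Cd8a the lowest, and 1, the growth factor gene Areg, was upregulated (328 to 735 CPM, against 215 to 234 CPM). The 6 were the general T cell genes Cd3d, Cd3e, Cd3g, Cd4 and Cd8a and the receptor gene Il7r. For Il7r the tissues overlapped (log2 fold change -1.06, adjusted p = 0.0494, limma), and its call was kept in 5 of 14 alternatives. Foxp3, Gata3 and Rora, set apart as nearer to the regulatory T cells and innate lymphoid cells that carry ST2, were not called. Which cells gave the RNA of Foxp3, Gata3 and Rora cannot be told from bulk samples, so their values do not report the number of those cells. Foxp3 stood at -1.10 on the log2 scale (limma, adjusted p = 0.0575). It was called down in 4 of 14 alternatives, among them the mouse as a block (adjusted p = 0.016). Gata3 stood at 0.66 with overlapping tissues and was called in 1 of 14 alternatives. Rora, at -0.63, passed FDR (limma, adjusted p = 0.0333) but not the fold change threshold, and all its tumors lay below all its glands. Il7r and Areg, both called, were left out of this group. The group was chosen after the values were seen, and the part of either list in the values of Il1rl1 was not tested.

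Il18 (chr9:50383378-50389942) encodes a cytokine known for inducing interferon γ. It was measured at 5.69, 6.77 and 10.7 CPM in the glands and at 12.8, 21.8 and 9.74 CPM in the tumors. T11035 and T11640 were above the gland of the same mouse and T9232 was below it, and the groups overlapped. Il18 was not called (log2 fold change 0.87, SE 0.34, adjusted p = 0.0707, limma). It was called without M9232 (1.11, adjusted p = 0.0352) and without T9232 (1.12, adjusted p = 0.0492), and its adjusted p ranged from 0.0352 to 0.253 over the alternatives.

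Il1r1 (chr1:40281925-40373043), the signaling receptor for both agonists, was measured at 95.4, 106 and 87.4 CPM in the glands and 179, 166 and 212 CPM in the tumors. The values were tight within each tissue and did not overlap. With a log2 fold change of 0.94 (SE 0.15, adjusted p = 0.00139, limma), Il1r1 passed FDR but not the fold change threshold. It passed both without M11640 (1.01, adjusted p = 0.00286) or without T11640 (1.02, adjusted p = 0.00569), with a range over the alternatives from 3.23e-06 to 0.00681.

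Il1rap (chr16:26581790-26730203) encodes the accessory chain shared by the receptors for IL-1, IL-33 and IL-36. It was measured at 14.8, 17.8 and 21.9 CPM in the glands and at 53.8, 57.4 and 73.4 CPM in the tumors, with no overlap. Il1rap was upregulated with a log2 fold change of 1.74 (SE 0.20, adjusted p = 0.00025, limma), and the mice were close to each other, with differences of 1.82, 1.66 and 1.72. Counts per gene do not separate its membrane and soluble forms.

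Il1r2 (chr1:40141613-40182064), the decoy receptor gene, was measured at 2.64, 15.4 and 3.15 CPM in the glands and at 24.7, 23.3 and 33.3 CPM in the tumors. M11640 stood several-fold above the other glands, and all glands lay below all tumors. Il1r2 was upregulated with a log2 fold change of 2.27 (SE 0.55, adjusted p = 0.0108, limma), but the within-mouse difference was 3.01 and 3.21 in the mice of T11035 and T9232 and 0.59 in that of T11640. Without M11640, the log2 fold change was 3.01 (adjusted p = 0.000114). Without T9232, the adjusted p was 0.05, at the threshold and the highest over the alternatives, whose lowest was 0.000114. The log2 ratio of Il1r2 to Il1r1 was -4.93, -2.75 and -4.59 in the glands and -2.83, -2.81 and -2.66 in the tumors. The groups overlapped through the mouse of M11640, and the difference of 1.32 gave p = 0.3 (exact permutation test, adjusted 0.375, and p = 0.5 in the exact paired test).

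Levels were compared between members per length of exonic sequence, as CPM per kb. In glands, Il1r1 came highest at 19.0 ± 1.83, followed by Il33 at 13.3 ± 4.19 and Il18 at 11.0 ± 3.73 CPM per kb (SD, n = 3). After them came Il1rn, Il1r2, Il1b, Il1a and Il1rl1 (5.41, 5.27, 4.04, 3.61 and 3.13 CPM per kb), and Il1rap came lowest at 1.60 CPM per kb. Among neighbours in this order, the ranges over the 3 glands overlapped for every pair except Il1rl1 and Il1rap. In tumors, Il1b came highest at 161 ± 33.4 CPM per kb, above Il1rn at 87.5 ± 25.5 with no overlap. Il33 and Il1a (51.4 and 50.8 CPM per kb) and Il1r1 (36.8) overlapped with their neighbours above. Il18 and Il1r2 (21.1 and 20.3) lay below Il1r1 and overlapped with each other, and Il1rap (5.42) and Il1rl1 (2.15) were each separate from the gene above. By this measure, the agonist gene Il1b stood at rank 6 in glands and at rank 1 in tumors. For Il1rap the exonic length was 11360 bp over all transcripts and 4520 bp for the longest, so its level per kb depends on the annotation. For Il1b these lengths were 1907 and 1356 bp, so its level and its rank in glands depend on the annotation too.

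T9232 had the highest tumor value for Il1a, Il1b, Il1rn, Il33, Il1r1, Il1r2 and Il1rap, and the lowest for Il18. T11035 was the lowest tumor for Il1a, Il1b, Il1rn, Il33 and Il1rap. M9232 was the highest gland for Il1a, Il1rn, Il18 and Il1rap and the lowest for Il1b and Il1r1. Several marker sums had the same extremes, with T11035 lowest and T9232 highest among tumors for the neutrophil (876 and 1470 CPM), luminal epithelial (753 and 924 CPM), endothelial (209 and 297 CPM) and T and innate lymphoid cell lists (215 and 234 CPM). The other lists differed. T11035 was lowest but T11640 highest for the keratinocyte, macrophage and monocyte, B cell and fibroblast lists. The lowest tumor was T11640 for mast cell markers and T9232 for adipocyte markers. For neutrophils, T11640 was lowest once S100a8 and S100a9 were left out (226, 215 and 356 CPM). That sum still held Ltf, at 44.8 CPM in T11035, 22.3 CPM in T11640 and 14.8 CPM in T9232. The part of these markers in the orders was not tested.

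The other genes of the family were taken from a list of 12, of which 10 were in the table. Of these 10, 5 were upregulated and 1 was downregulated (50% and 10%, beside 14.5% and 13.7% of all genes). The median log2 fold change was 1.27, or 1.62 with the 4 rarest genes at the lower end of their interval. Il1f6, Il1f8 and Il1f9 encode the IL-36 agonists, which act through IL1RL2 and IL1RAP and are known from keratinocytes, and Il1f5 encodes the IL-36 receptor antagonist. Il1f9 (IL-36γ) was measured at 11.8, 7.76 and 9.85 CPM in the glands and at 217, 632 and 843 CPM in the tumors. This was a log2 fold change of 5.58 (SE 0.44, adjusted p = 3.11e-05, limma), with no overlap between the tissues. Il1f6 (IL-36α) had 1 fragment over the 3 glands and 1956 over the 3 tumors, a ratio of 1.82e+03 with a 95% interval of 326 to 7.18e+04 from counting error alone. Its tumors were at 47.5, 126 and 111 CPM. Il1f8 (IL-36β) had 2 fragments in glands and 692 in tumors (ratio 321, interval 88.7 to 2.66e+03). Il1f5 had 1 fragment in glands and 754 in tumors (ratio 701, interval 125 to 2.77e+04). All 3 were thus at or near 0 in glands and well measured in tumors. Il1f10 (IL-38) was rare in both tissues, with 1 and 44 fragments (ratio 40.9, interval 6.96 to 1.65e+03). The IL-36 receptor gene Il1rl2 overlapped between the tissues (12.8, 35.0 and 19.0 CPM, against 28.7, 28.2 and 27.6 CPM) and was not called.

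For IL-18, the receptor chains and inhibitors were also measured. Il18r1, the ligand-binding chain, was measured at 154, 80.4 and 152 CPM in the glands and at 24.9, 35.0 and 34.8 CPM in the tumors. Every tumor lay below every gland, and Il18r1 was downregulated with a log2 fold change of -1.97 (SE 0.27, adjusted p = 0.000613, limma). The accessory chain Il18rap (log2 fold change 0.21, adjusted p = 0.564) and the soluble inhibitor Il18bp (-0.76, adjusted p = 0.105) were not called. Il18bp was called down without M11035 (-1.02, adjusted p = 0.046), with a range from 0.036 to 0.306 over the alternatives. Sigirr, a negative regulator of the family, was at 2.03, 1.98 and 2.33 CPM in glands and at 1.12, 0.524 and 1.20 CPM in tumors and was not called (-0.89, adjusted p = 0.0625). T and innate lymphoid cell markers, on cells known to carry the IL-18 receptor, were lower by the sums given above, and their part in the value of Il18r1 was not tested.

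**Figure D3:**
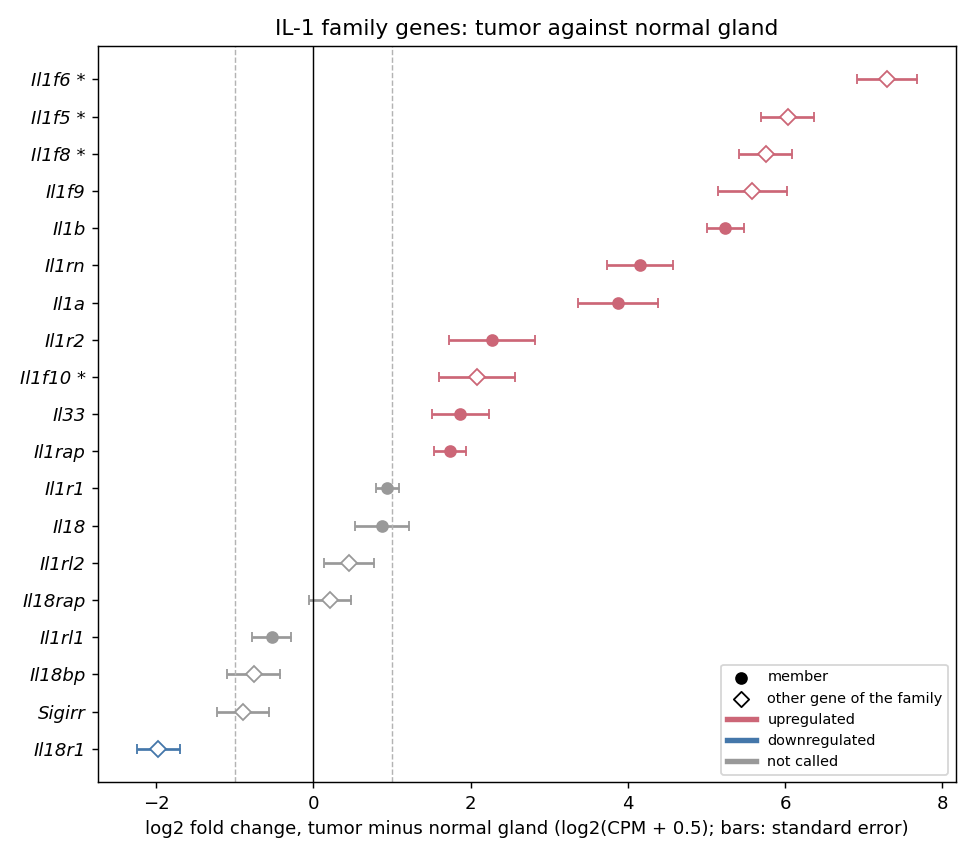
Log2 fold change (tumor minus normal gland) with its standard error for the 9 members (filled circles) and the 10 other family genes (open diamonds), with dashed lines at -1 and 1. An asterisk marks a gene with 3 or fewer fragments over the glands, whose fitted value depends on the pseudocount of 0.5. Genes of ligands and antagonists occupy the upper end and Il18r1 is the sole gene called down.

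Most of these genes lie in a pair of clusters. On chromosome 2 (mm9), 6 family genes fall within 198.3 kb in the order Il1f8, Il1f9, Il1f6, Il1f5, Il1f10 and Il1rn. All 6 were upregulated, beside 14.5% of all genes. On chromosome 1, 6 receptor genes fall within 466.9 kb in the order Il1r2, Il1r1, Il1rl2, Il1rl1, Il18r1 and Il18rap. In this cluster the log2 fold changes were 2.27, 0.94, 0.45, -0.53, -1.97 and 0.21, so that 1 gene was upregulated, 1 was downregulated and 4 were not called. Il1a and Il1b lie on chromosome 2 outside the ligand cluster.

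**Figure D4:**
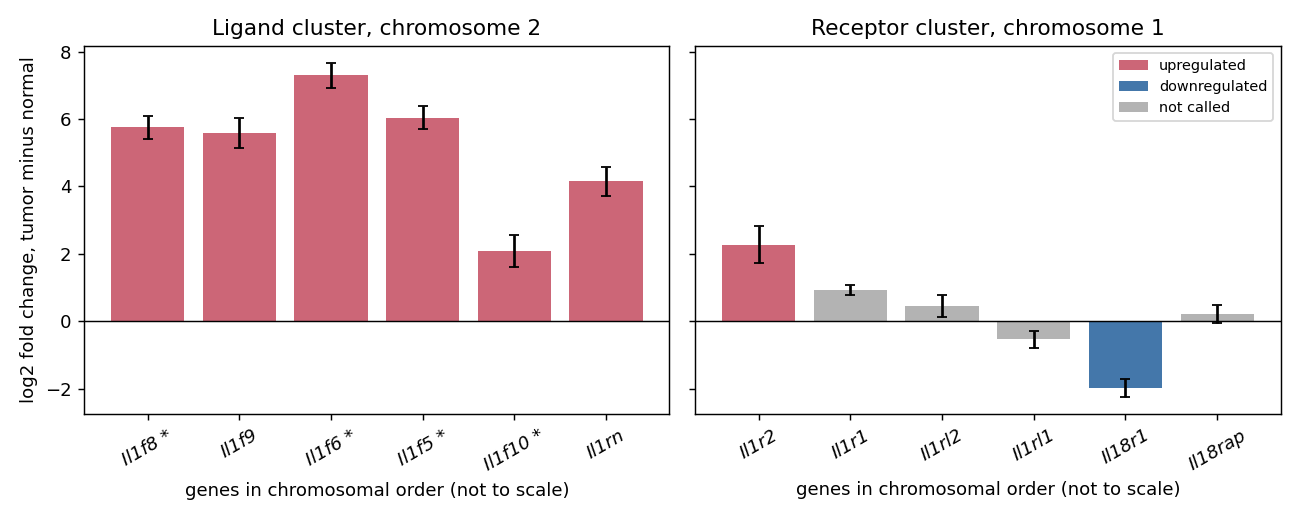
Log2 fold change (tumor minus normal gland, bars from 0, error bars are standard errors) of family genes in their chromosomal order, which is not drawn to scale. All 6 genes of the chromosome 2 cluster are upregulated, whereas the chromosome 1 cluster runs from 2.27 for Il1r2 to -1.97 for Il18r1. An asterisk marks a gene with 3 or fewer fragments over the glands.

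Of 22 genes for cytokine processing and the inflammasome, 3 were upregulated and 2 were downregulated, and the median of the log2 fold changes was 0.12. These shares, 13.6% up and 9.09% down, were at or below those of all genes (14.5% and 13.7%). Nlrp3, the sensor that activates caspase-1, was at 2.24, 2.81 and 1.92 CPM in glands and at 16.6, 10.1 and 20.2 CPM in tumors (log2 fold change 2.47, SE 0.30, adjusted p = 0.000305, limma). Mefv, which encodes the inflammasome sensor pyrin, had a log2 fold change of 2.63 (SE 0.27, adjusted p = 0.000121). Capn1, a calpain subunit gene, had 1.06 (adjusted p = 0.0159), and was not called without M11640 (0.81) or without T9232 (0.85). The inflammatory caspase gene Casp4 passed FDR at 0.88 (adjusted p = 0.00538) and was called without M9232 (1.04). Txnip, a thioredoxin inhibitor, fell from 291, 427 and 479 CPM to 72.0, 85.7 and 100 CPM (-2.19, SE 0.21, adjusted p = 8.89e-05). Cma1, a mast cell chymase gene, fell by 2.44 on the log2 scale (adjusted p = 0.0155) and was not called without M11640 (-1.90) or T11035 (-1.95) or T11640 (-2.42). Nek7 (-0.54) and Naip5 (-0.26) were not called. Nek7 passed FDR (adjusted p = 0.039, limma), with every tumor below every gland, whereas Naip5 did not (adjusted p = 0.485).

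Of 29 genes of receptor signaling, 1 was upregulated and 0 were downregulated, and the median of the log2 fold changes was 0.06. The share called up was 3.45%, beside 14.5% of all genes, and 13.7% of all genes were called down. In all, 12 of the 29 passed FDR, a share close to the 41.2% of all genes that did, and most of them had fold changes under the threshold. The kinase gene Map2k3 was at 18.5, 19.2 and 18.6 CPM in glands and at 37.4, 37.1 and 48.8 CPM in tumors (log2 fold change 1.10, SE 0.17, adjusted p = 0.0013, limma), and was not called without T9232 (0.97). The adaptor gene Myd88 was at 0.90 (adjusted p = 0.00942) and was called without T11035 (1.02), as was Ube2v1 (1.01), which was singled out after its values were seen. Ube2n and Map2k4 were at 0.84 and 0.80. At the low end, Mapk9, Peli2, Irak1 and Ikbkb were at -0.74, -0.74, -0.60 and -0.56, and each passed FDR.

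Of 31 target genes of IL-1 and NF-κB, 17 were upregulated and 1 was downregulated, and the median of the log2 fold changes was 1.24. These shares were 54.8% up and 3.23% down, beside 14.5% and 13.7% of all genes. Among the 17, Ccl20 kept its call in 8 of 13 alternatives and Lif in 8 of 14. The listed genes have other inducers, and the list does not report IL-1 activity. The highest were Cxcl5, Mmp13, Saa3 and Cxcl2, which encode neutrophil chemokines, a collagenase and an acute phase protein. Cxcl5 was at 0.813, 0 and 1.92 CPM in glands and at 141, 99.9 and 117 CPM in tumors (log2 fold change 6.67, SE 0.50, adjusted p = 2.3e-05, limma). Mmp13 was at 11.0, 3.30 and 11.1 CPM in glands and at 688, 721 and 812 CPM in tumors (6.54, SE 0.39, adjusted p = 7.8e-06). Saa3 and Cxcl2 had log2 fold changes of 6.28 (SE 0.81) and 5.68 (SE 0.39). The value of Saa3 was 7.27 without M9232 and 5.67 without T9232, and that of Cxcl5 was 6.06 without M11640. In all 4, the tumors lay far above the glands. Sod2 (-0.82), Vcam1 (-0.74) and Nfkbie (-0.73) were lower in mean and were not called. Sod2 and Nfkbie passed FDR (adjusted p = 0.00543 and 0.0337, limma), with every tumor below every gland. Vcam1 did not pass (adjusted p = 0.13), and its groups overlapped. Lcn2, which encodes an iron-binding neutrophil and epithelial protein, was at 90.9, 251 and 593 CPM in glands and at 111, 73.7 and 39.0 CPM in tumors. Its groups overlapped, and its log2 fold change was -2.49 without M11035. Its call (-1.79, SE 0.62, adjusted p = 0.0474) was lost with the mouse as a block (adjusted p = 0.0719) and without M11640 (-1.76), M9232 (-1.14), T11035 (-2.14), T11640 (-1.85) or T9232 (-1.39). Over the alternatives its adjusted p ranged from 0.00481 to 0.168.

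**Figure D5:**
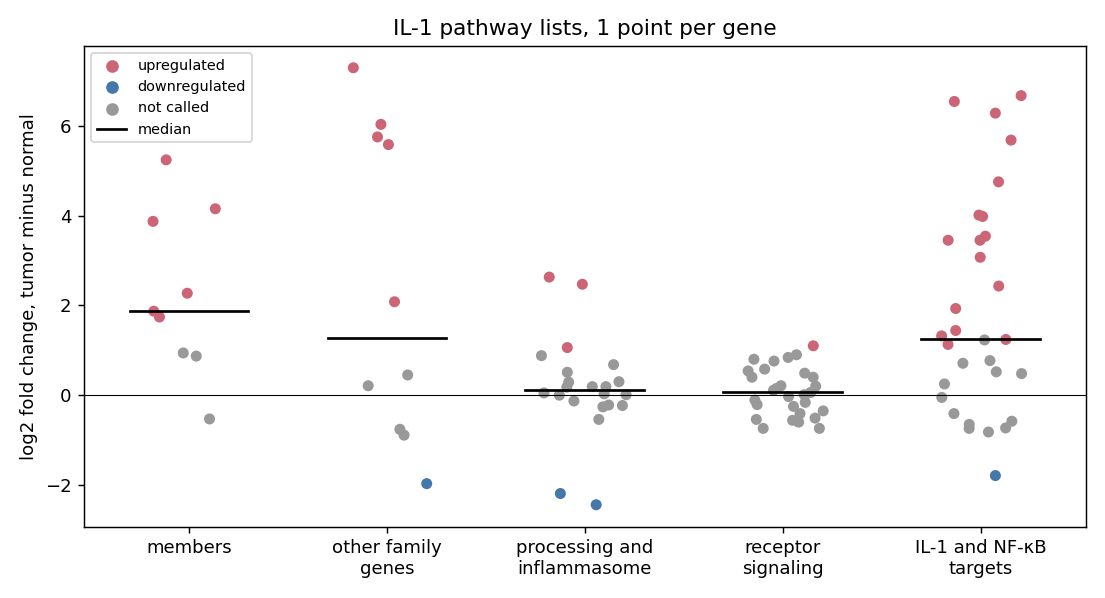
Log2 fold change (tumor minus normal gland) of each gene in the members and the 4 pathway lists, with 1 point per gene, black bars at the medians and colour for the call. Members, other family genes and target genes have medians of 1.87, 1.27 and 1.24, whereas the processing and signaling lists have medians of 0.12 and 0.06.

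The genes whose log2(CPM + 0.5) followed each member most closely over the 6 libraries are given as a description, since a difference between tissues alone makes many genes alike. Pearson's r was 0.9989 between Il1a and Ccl3, a chemokine gene, and 0.9986 with Ptgr1. For Il1b it was 0.9996 with Map3k7 and 0.9991 with BC100530. For Il1rn it was 0.9988 with Wdr47 and 0.9986 with Gpr35. The closest gene was Wapal for Il18 (0.9864), Gipc2 for Il1r1 (0.9943), Zfp385a for Il1r2 (0.9921), Vps33a for Il1rl1 (0.9903) and Epb4.1l5 for Il33 (0.9973). Between 10 genes (for Il1rl1) and 1257 genes (for Il1b) of the 14711 compared exceeded an r of 0.95. Among the members, r was 0.99 between Il1a and Il1rn and 0.96 between Il1b and Il1rn, and it was negative between Il1rl1 and each of the other 8.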

How the data were processed

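RNA-Seq was analysed from 3 tumors and 3 matched glands, grouped by their labels. Per the study's methods, the authors aligned the reads to mm9 with TopHat2 2.0.3, counted fragments per RefSeq gene with HTSeq 0.5.3p9 and removed genes with fewer than 10 fragments over all samples. The authors deposited a signal per gene, in CPM on the effective library size of edgeR 3.6.1, so the columns sum to different totals (952151 to 1041166). The unit was therefore recorded as a signal, which takes the test planned for CPM. Fragments were recovered by dividing by each column's step (100% whole within 1e-06).

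The tissues were compared with limma 3.58.1 under R 4.3.3 (log2(CPM + 0.5), mean-variance trend, no block, Benjamini-Hochberg over 15280 genes). The script was tested on simulated data of 15280 genes. It called 39 of 50 rises and 26 of 50 falls of 4-fold, 50 of 50 rises and 47 of 50 falls of 8-fold, and 1 of 15080 unchanged genes. The changed genes were drawn only from genes above a minimum gland level, which Il1a, Il1b, Il18 and Il1r2 did not reach. Recovery at such low gland levels was not tested, and a common dispersion was used for all genes. The level of recovery accepted was lowered after the first runs had given 26 of 50 for 4-fold falls, so a gene that was not called may still differ. edgeR 4.0.16 and DESeq2 1.42.0 on recovered fragments were among the alternatives.

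Gland and tumor with the same number were taken as from 1 animal, because the paper describes matched glands of the mice that bore the tumors. Their deviations from the group means correlated with r = 0.107, 0.151 and 0.0168 over 14712 genes. Within a tissue no libraries were copies (lowest chi-square per degree of freedom 12.4). Of 19 family genes, 0 had a transcript of another gene at least 95% identical over 500 bp (BLAST 2.17.0, GENCODE vM1, which also gave mm9 positions). Intervals and floors cover counting error only. The members and gene lists were chosen with earlier results of these data known. The genes named are all members and listed family genes, the 4 highest and 4 lowest genes with mean CPM of 1 or more in each other pathway list, the extremes of marker lists and the 2 genes most like a member. Other genes were named after their values were seen. Current symbols of Il1f6, Il1f8, Il1f9 and Il1f5 are Il36a, Il36b, Il36g and Il36rn.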

Additional observations from a re-analysis of the deposited data

How the results depend on the processing

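Each of the 6 upregulated members kept its call under all 14 alternatives (pseudocounts of 0.1 and 1, a mean of at least 1 CPM, the mouse as a block, no trend, the plain total, edgeR and DESeq2 on recovered fragments, and each library left out), and 6 or 7 members were called. With the replicate block, 6 members were called, and among pathway genes the block ended only the call of Lcn2. The downregulated targets numbered 0 with the block and 0 with no trend, and 0 to 1 when a library was left out. Leaving out a library gave 1 to 2 downregulated genes for the other family genes and for processing, and 0 to 3 upregulated genes for signaling. The order of members per kb in glands kept 4 of 9 ranks with the length of the longest transcript and 4 of 9 when a library was left out, and in tumors 7 to 9. Directions of the 5 ratios were kept in the 45 refits. The cause of these shifts was not tested. An exact p cannot go below 0.1 for 3 against 3 unpaired libraries or below 0.25 for 3 pairs. Genes with few gland fragments have no fold better than their counting interval.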
